A study of Homo sapiens with 8 samples.

Results

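The 8 genes described here encode the nuclear complex that writes N6-methyladenosine (m6A) on messenger RNA, and the question was where, if anywhere, the RNA-binding protein RBM45 had cross-linking peaks on their transcripts. Of 210878 peaks listed for the first wild-type (WT) CLIP replicate, 19 lay in these loci, and of 65587 listed for the second, 7 did. Of the 13758 peak pairs that the authors' list gives as shared by both replicates, 0 lay in them. Only 6.52% of replicate 1 peaks and 20.9% of replicate 2 peaks are in the pair list at all, so a count of 0 among so few peaks does not set these loci apart. Peaks were taken when they shared at least 1 base with the gene's hg19 interval on the gene's strand. Entries listed on both strands were counted on each.

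CLIP (cross-linking and immunoprecipitation) recovers the RNA fragments that ultraviolet light has bound to a protein. The cells were HEK293T, a line of transformed human embryonic kidney cells, with FLAG-HA-tagged human RBM45 supplied by a lentivirus and with the tag's HA part used for the pull-down. Irradiation was 300 mJ/cm2 at 254 nm. The series has 8 libraries in 4 groups of 2, CLIP and size-matched input from WT and from METTL3 knockout cells, all carrying the tagged protein. The values below come from the WT CLIP peak lists, and the input and knockout libraries were not analysed here. The protein was expressed from a transgene, so its amount may differ from that of the cells' own RBM45. Whether separate cultures gave the replicates is not stated in the labels. With 1 list per library, peak numbers carry no replicate error and no test was run.

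The m6A writer has a catalytic core and a larger regulatory part. METTL3 transfers the methyl group and METTL14 pairs with it to hold the RNA. WTAP, KIAA1429 (now called VIRMA), RBM15, RBM15B, ZC3H13 and CBLL1 (also called HAKAI) form the regulatory part, which places the core in the nucleus and on its targets. RBM45 carries several RNA recognition motifs. The study asks whether its binding depends on m6A, so the writer genes are both the source of the mark and possible targets of the protein.

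The 26 peaks lay at different bases in the 2 replicates, as did most peaks of the whole lists, where 28.8% of replicate 2 and 8.88% of replicate 1 peaks overlapped the other list. Replicate 1 listed a peak in 6 of the 8 loci and replicate 2 in 2 of them, METTL3 and ZC3H13. The share of all genes with a listed peak needs an hg19 annotation and was not computed, so these counts cannot be called high or low. METTL14 and RBM15 had no listed peak in either list. METTL3 was the only locus with more peaks in replicate 2 than in replicate 1, 6 against 2. The other 7 loci held 17 peaks in replicate 1 and 1 in replicate 2.

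**Figure D1:**
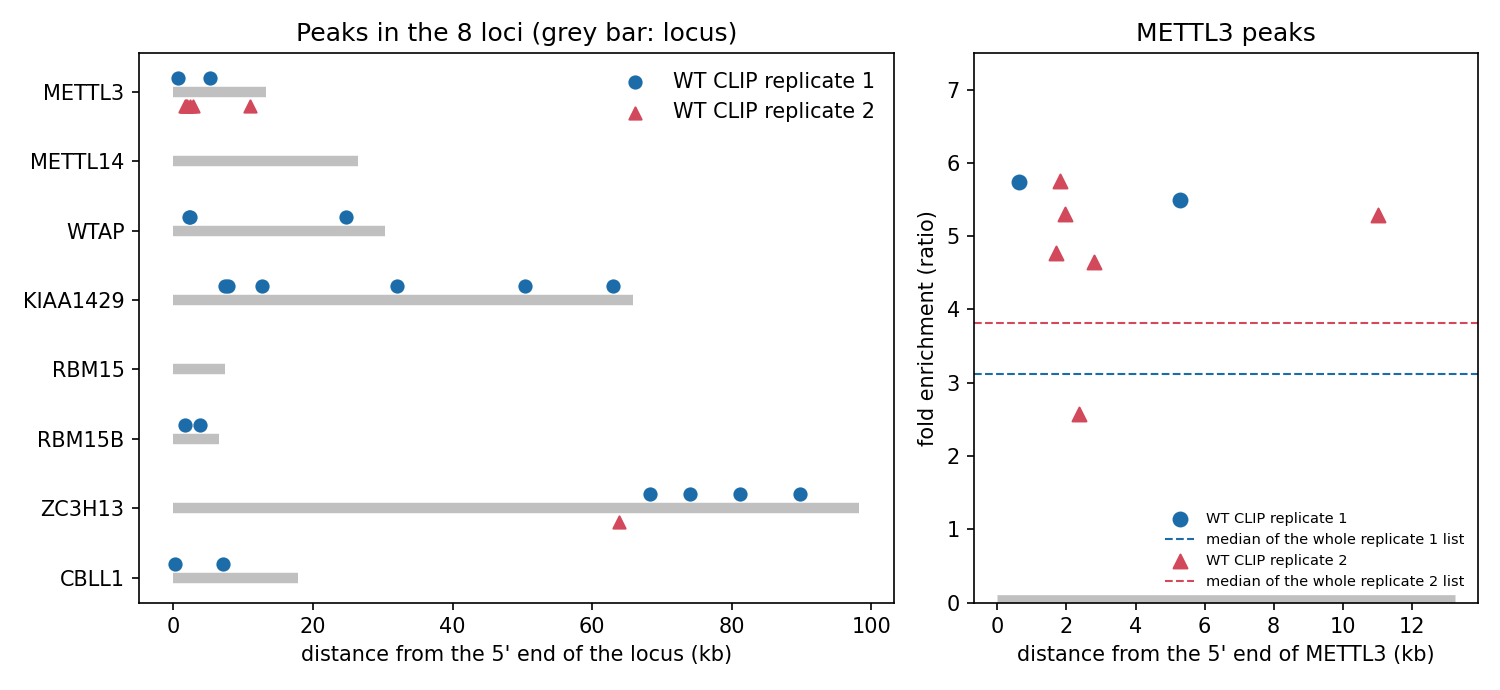
Left, the position of each listed peak (kb from the 5′ end of the locus) in the 8 loci, with circles for WT CLIP replicate 1, triangles for replicate 2 and a grey bar for the length of each locus. Right, the METTL3 peaks with their fold enrichment over the caller's background (a ratio), where dashed lines give the median of each whole list, 3.12 and 3.81. The 6 triangles of METTL3 and the single one of ZC3H13 are all the replicate 2 peaks, and none lies at a circle.

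METTL3, the catalytic subunit, spans chr14:21966282-21979517 on the minus strand, 13.2 kb. Replicate 2 placed 5 of its 6 METTL3 peaks in a run of 1136 bases, chr14:21976708-21977843, whose peak midpoints lay 1690 to 2795 bases from the 5′ end of the locus. Going from the 5′ end, the authors' fold enrichments of these peaks, which are ratios over the peak caller's background, were 4.77, 5.75, 5.31, 2.57 and 4.65. All but the fourth exceeded the median of the whole replicate 2 list, which was 3.81.

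The 5 peaks of the run were 31, 32, 48, 68 and 30 bases wide in the same order, and the free stretches between neighbours were 84 to 378 bases long. The widest of them, chr14:21977116-21977183, was the weakest, with a fold of 2.57 and a −log10 p of 2.34. The strongest by p, chr14:21977547-21977594, had a −log10 p of 8.41, and 89.0% of the replicate 2 list lay below that. The highest fold of the run, 5.75, belonged to chr14:21977697-21977728, and 91.1% of the list had a lower fold. The sixth replicate 2 peak stood apart from the run, 8199 free bases away and 11024 bases from the 5′ end. It lay at chr14:21968479-21968508 with a fold of 5.28 and a −log10 p of 9.36, the highest −log10 p of the 7 replicate 2 peaks in these loci.

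Replicate 1 listed 2 METTL3 peaks, and both lay outside the run. The peak at chr14:21978851-21978923 was 73 bases wide, with its midpoint 630 bases from the 5′ end, and had a fold of 5.74 and a −log10 p of 8.98. It was the widest of the 19 replicate 1 peaks in these loci. The peak at chr14:21974212-21974241 was 30 bases wide, lay 5.29 kb from the 5′ end and had a fold of 5.49 and a −log10 p of 8.90. The run of replicate 2 peaks therefore lies between the 2 replicate 1 peaks, and 1007 free bases separate it from the nearer one. Both replicate 1 peaks were strong for their list, since 95.2% and 93.9% of its peaks had a lower fold.

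The run was set beside other close groups of peaks after its values were seen. Over the whole replicate 2 list, 514 sets of 5 consecutive peaks on 1 strand fitted into 1136 bases or less, and 2.38% of the list's peaks belonged to such a set. Sets overlap where more than 5 peaks follow each other closely. In 10 of the 514 sets, the METTL3 set among them, replicate 1 listed no peak between the first and the last base, which is 1.95%. The number of 5 peaks, the 1136 bases and the lack of replicate 1 peaks were all taken from the METTL3 run. These shares are therefore a description and no measure of how unusual the run is. Of the 8 METTL3 peaks of both lists, 75.0% came from replicate 2, a share given as a description, since METTL3 was singled out for it and 5 of the peaks lie in 1 run. Replicate 2 supplied 5.56% of the 18 peaks in the other 7 loci and 23.7% of all peaks of both lists.

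METTL14, the partner of METTL3 in the catalytic core, covers chr4:119606523-119633000 on the plus strand, 26.5 kb, and had 0 listed peaks in both replicates. The nearest listed peaks of either strand were 109 kb apart across the locus in replicate 1 and 699 kb apart in replicate 2. Peak names carry a running number along the chromosome, and 2 numbers in replicate 1 and 1 in replicate 2 have no entry between those neighbours. At most that many called peaks can therefore be missing from the lists there. In the catalytic core, METTL3 had 2 listed peaks in replicate 1 and 6 in replicate 2, and METTL14 had 0 in both. The 500 kb on each side of METTL14 held only 0.024 and 0.002 same-strand peaks per kb. In replicate 1, CBLL1, KIAA1429 and ZC3H13 stood in sparser surroundings (0.00700, 0.0190 and 0.0200 peaks per kb) and held 2, 6 and 4 peaks. RBM15, in denser ones (0.0410), held 0, so a count of 0 does not set METTL14 apart. The reason for its 0 was not tested.

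WTAP, the adaptor that joins the core to the regulatory part and brings it to nuclear speckles, spans chr6:160147000-160177351 on the plus strand. It had 3 replicate 1 peaks and 0 replicate 2 peaks. Between the neighbouring listed peaks, however, 12 peak numbers in replicate 1 and 9 in replicate 2 have no entry. Of the 3 listed peaks, a pair lay near the 5′ end, at chr6:160149180-160149226 and chr6:160149364-160149393, with folds of 2.18 and 3.63. The remaining listed peak, at chr6:160171719-160171748 with a fold of 2.17, lay 24.7 kb from the 5′ end. The 2.18 and 2.17 were among the lowest folds of the replicate 1 list, of which 0.780% and 0.751% had lower values. The WTAP gene overlaps SOD2 of the opposite strand by the GRCh38 annotation, and no opposite-strand peak was listed in the WTAP interval.

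KIAA1429, a large scaffold that binds the other regulatory subunits, spans chr8:95499921-95565757 on the minus strand, 65.8 kb. It had the most replicate 1 peaks of the 8 loci, 6, and 0 in replicate 2. Between its neighbouring listed peaks, 8 numbers in replicate 1 and 2 in replicate 2 are absent. The 6 listed peaks were spread along the gene, with midpoints 7.42, 7.88, 12.7, 32.1, 50.5 and 63.0 kb from the 5′ end. The highest fold was 4.87, at chr8:95553080-95553109, and the widest peak, of 52 bases, was chr8:95515281-95515332 with a fold of 2.76. The closest replicate 2 peak on the minus strand was 43486 bases from any of the 6.

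ZC3H13, a zinc finger protein that helps to keep the complex in the nucleus, is the longest locus, 98.3 kb at chr13:46528600-46626896 on the minus strand. All 5 of its listed peaks lay between 63.8 and 89.9 kb from the 5′ end, in the 3′ part of the gene. Replicate 1 had 4, with folds of 3.21, 3.16, 3.31 and 6.40 from the 5′ side to the 3′ side. The last, chr13:46537020-46537060, had the highest fold and the highest −log10 p, 9.72, of the 19 replicate 1 peaks. The widest, of 60 bases, was chr13:46558528-46558587. The replicate 2 peak, chr13:46563058-46563095, had a fold of 2.36, which exceeded only 1.74% of its list, and lay 4470 free bases from the nearest replicate 1 peak.

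RBM15 and RBM15B are related RNA-binding proteins that bring the complex to its target transcripts. RBM15, at chr1:110881945-110889303 on the plus strand, had 0 listed peaks in both replicates. RBM15B, at chr3:51428699-51435300 on the plus strand and only 6.60 kb long, had 2 in replicate 1 and 0 in replicate 2. Its peaks were chr3:51430331-51430360, with a fold of 3.51, and chr3:51432487-51432523, with a fold of 2.67 and a width of 37 bases. At RBM15B no peak number is absent between the neighbouring listed peaks of either list, which stood 46.6 kb apart in replicate 2, so by that numbering no called peak is unlisted there. At RBM15, 3 numbers in replicate 1 and 2 in replicate 2 are absent. ZC3H13 has 2 and 1 absent, and METTL3 has 0 and 1. By that numbering, no called replicate 1 peak is unlisted across the METTL3 run of replicate 2. Summed over the stretches between neighbouring listed peaks around the 8 loci, 30 numbers in replicate 1 and 18 in replicate 2 are absent. The strand and exact place of these absent peaks are unknown, and the stretches reach beyond the loci, which held 19 and 7 listed peaks. In the whole lists 25.6% and 15.2% of the numbers are absent. Those shares cannot be set against the counts here, because the stretches end at listed peaks that are left out of the count. A locus without a listed peak may therefore still have had a called one, except RBM15B in replicate 2.

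CBLL1, an E3 ubiquitin ligase that belongs to the regulatory part, spans chr7:107384279-107402083 on the plus strand. It had 2 replicate 1 peaks and 0 replicate 2 peaks, with 3 numbers in replicate 1 and 2 in replicate 2 absent between the neighbouring listed peaks. The peak at chr7:107384456-107384485, with a fold of 3.47, had its midpoint 191 bases from the 5′ end and was the only one of the 26 peaks within 300 bases of a 5′ end. The other, chr7:107391434-107391484, was 51 bases wide with a fold of 5.34, and 92.6% of the replicate 1 list had a lower fold. The nearest replicate 2 peaks on the strand were 136521 and 143499 bases from them.

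Across the 8 loci, which add up to 266 kb, none of the 7 replicate 2 peaks shared a base with a replicate 1 peak. With 3 counts taken as the limit that a count of 0 allows, 0 of 7 allows a share of up to 42.9%, above the 28.8% of the whole list. None of the 19 replicate 1 peaks overlapped replicate 2, and 0 of 19 allows up to 15.8% by the same limit, above the 8.88% of the whole list. These limits cover counting error only. A difference from the lists was not detectable with so few peaks. The free distance from a replicate 2 peak to the nearest replicate 1 peak on the strand ran from 1007 to 5703 bases, with a median of 1667. Of these 7 distances, 6 belong to METTL3 peaks. From the 19 replicate 1 peaks to the nearest replicate 2 peak, the distance ran from 1007 to 143499 bases, with a median of 43486.

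Peak density differed between loci, and the order depended on the replicate. In replicate 1, RBM15B came first with 0.303 peaks per kb, then METTL3 with 0.151, CBLL1 with 0.112, WTAP with 0.0988, KIAA1429 with 0.0911 and ZC3H13 with 0.0407. In replicate 2, METTL3 had 0.453 peaks per kb and ZC3H13 0.0102, and the other 6 loci had none. METTL3 averaged 0.302 ± 0.214 peaks per kb (SD, n = 2), so its replicates differed by as much as its mean. RBM15B rests on 2 peaks in a short locus. CBLL1, WTAP and KIAA1429 had nearly the same density in replicate 1.

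Over the 8 loci together the density was 0.0714 peaks per kb in replicate 1 and 0.0263 in replicate 2. On 1 strand, 100-kb windows with a peak in either list averaged 0.101 and 0.0315, but 38.9% of these windows had no replicate 2 peak and 25.3% held a shared pair. Those windows were chosen for holding a peak, which raises their mean, so they are no measure against which to read the loci. The 500 kb on each side of the loci, empty stretches included, held 0.0498 same-strand peaks per kb in replicate 1 and 0.0231 in replicate 2. In replicate 1 the density of 6 loci exceeded that of their own surroundings, all but METTL14 and RBM15. In replicate 2, METTL3 (0.453 against 0.0570 peaks per kb) and ZC3H13 (0.0102 against 0.00200) did. In each replicate these were simply the loci with any listed peak. How many other genes exceed their surroundings was not computed, so these counts show no enrichment at the 8 loci. The ZC3H13 value rests on 1 peak, with a fold of 2.36, against 2 peaks in its surroundings. RBM15B stood in the densest surroundings, 0.174 peaks per kb in replicate 1 and 0.0850 in replicate 2, and had no replicate 2 peak of its own. CBLL1 stood in the sparsest replicate 1 surroundings, 0.00700 peaks per kb. Transcribed genes were not separated from intergenic sequence in these comparisons. In the densest window of the pair list, chr16:89400001-89500000 on the minus strand, the lists held 173 and 105 peaks and 43 pairs.

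**Figure D2:**
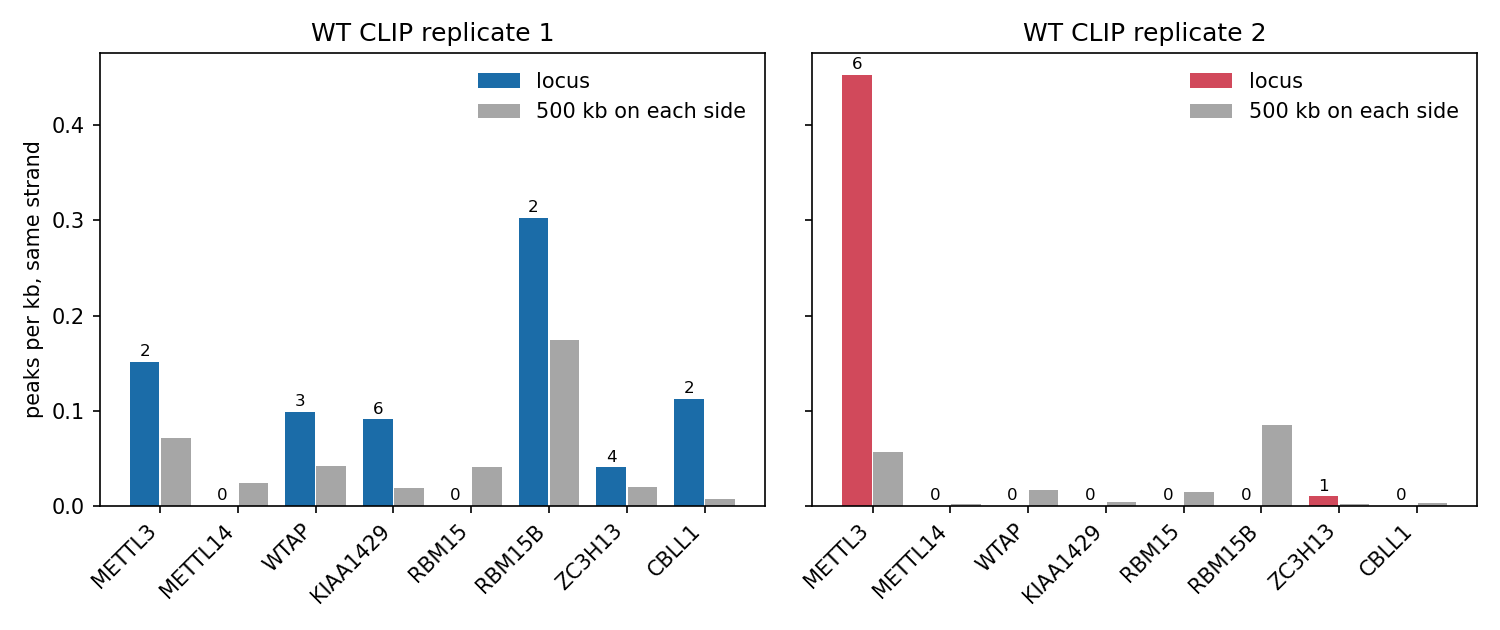
Listed peaks per kb on the gene's strand in each locus (coloured bars, with the number of peaks above) and in the 500 kb on each side of it (grey bars), for WT CLIP replicate 1 on the left and replicate 2 on the right. METTL3 reaches 0.453 peaks per kb in replicate 2 against 0.151 in replicate 1, and RBM15B falls from 0.303 to 0.

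Folds of the listed peaks began among the lowest of each list. The highest replicate 1 fold exceeded 97.2% of its list and the highest replicate 2 fold 91.1%. The 19 replicate 1 peaks had a median fold of 3.43 (range 2.17 to 6.40) beside 3.12 for the whole list, and 14 of them exceeded that median. At least 5-fold peaks were 4 of the 19, namely the pair on METTL3 and 1 each on ZC3H13 and CBLL1, while 9.16% of the list reached 5-fold. The 7 replicate 2 peaks had a median fold of 4.77 (range 2.36 to 5.75) beside 3.81, and 5 exceeded the list's median. At least 5-fold peaks were 3 of the 7, all on METTL3 and some of them in its run, while 18.0% of the list reached 5-fold. The only replicate 2 peak outside METTL3 had a fold of 2.36. With so few peaks, the differences from the lists were not tested. Median widths were 30 and 32 bases. The highest fold in the 8 loci was the 6.40 of ZC3H13.

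**Figure D3:**
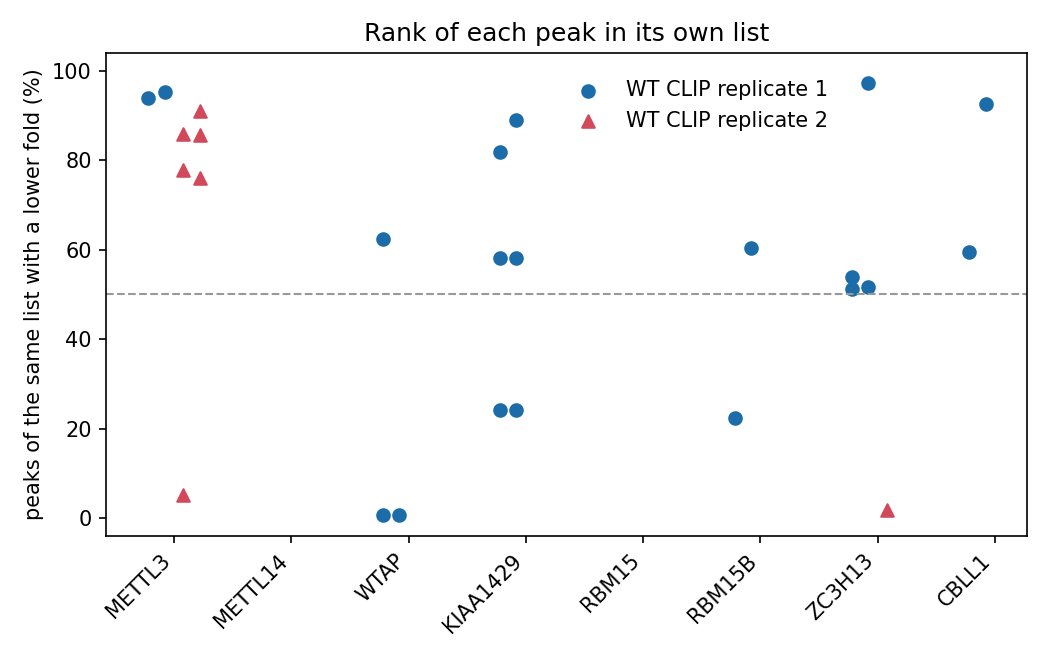
For each listed peak of the 8 loci, the percentage of peaks in its own list with a lower fold enrichment, with circles for WT CLIP replicate 1 and triangles for replicate 2, shifted sideways so that they can be told apart. The dashed line marks 50%. Both METTL3 circles lie above 93%, 5 of its 6 triangles lie between 76.1% and 91.1%, and the WTAP circles at 0.751% and 0.780% and the ZC3H13 triangle at 1.74% are among the lowest of their lists.

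Several limits of the loci are round numbers (the starts of WTAP and ZC3H13 and the ends of METTL14 and RBM15B) and may be approximate, which bears on the densities and on the distances from the 5′ end of WTAP. No peak of either list lay within 5 kb outside a locus on its strand, so loci wider by up to that much would have held the same peaks, while narrower loci were not tried. No peak of the opposite strand lay inside a locus. By the GRCh38 annotation no other gene overlaps any of the 8 on the same strand, while 6 of the 8 overlap a gene of the opposite strand. The sources used here do not say how the authors gave each peak its strand, so the lack of opposite-strand peaks is no measure of background.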

How the data were processed

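The authors' peak lists of the 2 WT CLIP libraries were used, in hg19. The submitters' processing notes name MACS2 2.1.1.20160309 and Novoalign 3.09.00, and also deepTools 3.2.1, HOMER 4.11.1 and bedtools 2.25.0, with no step given for any. Peak names carry MACS2, the library and p005. The deposited lists give each peak's fold enrichment, which is a ratio to background, an unadjusted −log10 p and a score of 10 times that value cut to a whole number. No source used here names the caller's control. A deposited list kept under the first WT input's record holds the shared pairs. Its remaining value column, the number of bases in common, was not needed.

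Rows repeating a peak on the same strand were counted once. Distances run from the locus's 5′ end to the peak's midpoint, positions count from 1, and read depth behind the lists is unknown. The members were chosen with earlier results of these data known. The rule for named peaks took every shared pair (there was none), the highest-fold and widest peak of each list and locus, and all METTL3 peaks of replicate 2. Other peaks were named after their values were seen. The 16 columns of the count table and its summary match no sample label and were not used, so the planned count tests (edgeR, with DESeq2 as alternative) were not run. The annotation at hand is GRCh38, from which only names, strands and overlapping genes were taken, for 8 of 8 genes. Exons, introns, sequences, m6A readers and erasers and genes of like pattern need hg19 and were not analysed here. Overlap counting was tested on simulated data. The work used pandas 2.3.3, numpy 2.4.6, scipy 1.17.1 and matplotlib 3.10.9 under Python 3.11.15.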

Additional observations from a re-analysis of the deposited data

How the results depend on the processing

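Loci extended by 5 kb, counts without METTL3 and the rank and density of METTL3 were chosen after seeing the data. The 19 replicate 1 peaks were 38 rows as deposited, since WTAP, KIAA1429 and CBLL1 peaks repeat. Without METTL3 the 7 replicate 2 peaks came down to 1. METTL3 ranked 1 by mean peaks per kb and 2, after RBM15B, without replicate 2. The density of 0.0489 peaks per kb over both lists corresponds to 1.89 covered bases per kb. With 2 lists, leaving one out always moves a mean by less than their SD, so the ranges that follow show the gap between the lists and no stability. Leaving out a replicate gave densities of 0.0263 to 0.0714 peaks per kb over the 8 loci and 0.151 to 0.453 for METTL3. The mean of the lists' median folds, 4.10, became 3.43 to 4.77. Shared pairs stayed at 0 with 1 shared base required, the only alternative that could have added pairs. Extending the loci could add none, since the added stretches held no listed peak on the gene's strand. The stricter ones could give nothing but 0. Ignoring strand, using peak midpoints and extending the loci left 19 and 7 peaks, and the stronger 50% of each list held 13 and 5. No paired analysis was possible because no column of counts could be tied to a sample. Leaving out a replicate gives no value for shared pairs, which need both lists. The unknown read depth limits what an absent peak shows.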
